A study of Rattus norvegicus with 17 samples.

Results

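The calcitonin gene related peptides (CGRP) and adrenomedullin are small amidated peptides that share a receptor. The receptor is a G protein coupled protein, encoded by Calcrl, that reaches the cell surface only together with a receptor activity modifying protein (RAMP). Paired with RAMP1 it binds CGRP, and paired with RAMP2 or RAMP3 it binds adrenomedullin. Both kinds of receptor mainly raise cyclic AMP, and in rodents CGRP from the genitofemoral nerve has long been studied as a signal to the gubernaculum during testis descent. The 7 genes described here are the ligand genes Calca, Calcb and Adm, the receptor gene Calcrl and the accessory genes Ramp1, Ramp2 and Ramp3. They were taken as every probe set that the platform annotation assigns to 1 gene among them, which gave 10 of the 31099 probe sets on the array, for 7 of 14218 genes with such a probe set.

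Gubernacula, the fetal ligaments of the testis, came from male Long Evans rat fetuses at gestational day 17, and each biological replicate was a pool of 2 bulbs cultured on a filter insert. All cultures stood for 24 h in hormone-free medium with charcoal-stripped serum and an insulin, transferrin and selenium supplement, and then for 24 h more in 1 of 3 conditions. These were no added hormone (control, 6 arrays), 10 nM Insl3 (3 arrays; a relaxin-like hormone that the fetal testis secretes) and 100 nM Insl3 (6 arrays). The question of the comparisons is which transcripts respond to the hormone and whether the doses differ. A further 2 arrays at 10 nM, replicates 4 and 5, were set aside by the submitters as outliers with a low yield of labelled cRNA and are in no comparison below, only given as values and in an alternative fit of all 17 arrays. Values are GCRMA expression levels in log2 units, so a difference of 1 is a doubling, and a shared floor at 2.11 marks probe sets with no signal above background. The bulb is a mixed tissue, with strong signals of mesenchyme (Col1a1 averaged 14.90 in controls) and of developing muscle (Myog averaged 14.85), so a change in 1 cell type's number and a change of RNA per cell cannot be told apart in any result below. The labels name no batch, but earlier results of these arrays divided control and 100 nM replicates 1, 2 and 6 from replicates 3, 4 and 5, and values within each set are given where they differ.

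Of the 10 probe sets, 4 gave a signal, those of Adm, Ramp1, Ramp2 and Ramp3. Each of these 4 was above the filter value of 2.285 in all 15 arrays, so none entered the test through 1 group alone. The other 6 probe sets, 3 for Calca, 1 for Calcb and 2 for Calcrl, never exceeded that value in the 15 arrays and were not tested. Among the 4 tested, Adm, Ramp2 and Ramp3 rose at both doses and Ramp1 did not pass the test at either. That is 3 of 4 members called higher, where 6.51% of all 18938 tested probe sets were called higher at 100 nM and 4.88% at 10 nM (limma, Benjamini-Hochberg adjusted p under 0.05). None of the 4 was called lower, against 4.39% of all tested at 100 nM and 5.7% at 10 nM. The 2 comparisons share their 6 control arrays and are not independent of each other.

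**Figure D1:**
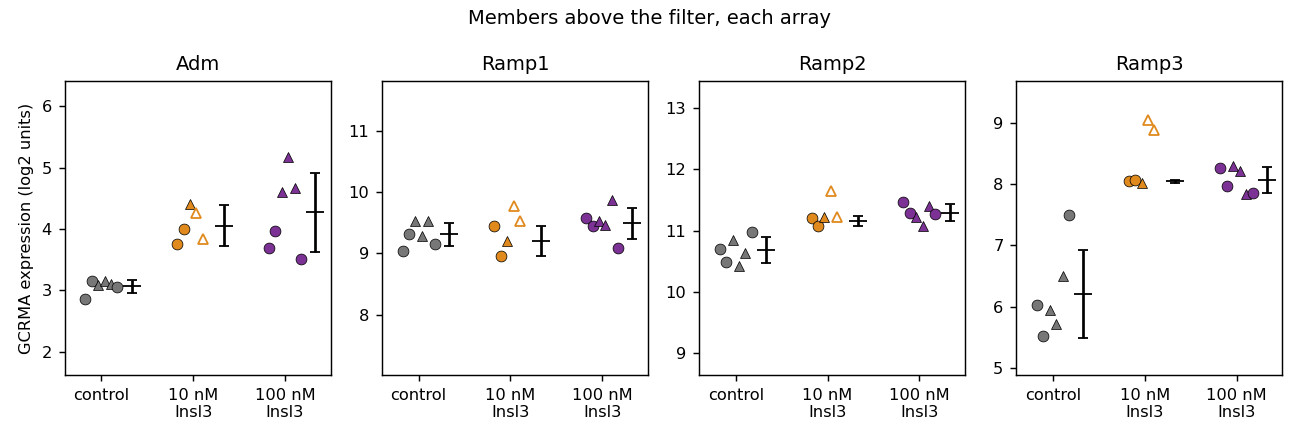
Expression of the 4 members with a signal, in log2 units, by Insl3 dose. Each filled point is 1 array (circles, replicates 1, 2 and 6; triangles, replicates 3, 4 and 5), open triangles are the 2 set-aside 10 nM arrays, bars are mean ± SD of the filled points, and every panel spans the same number of log2 units. Adm, Ramp2 and Ramp3 lie above all 6 controls in every kept Insl3 array, and the Ramp1 groups overlap.

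Adm and Ramp3, genes of a ligand and of an accessory protein of its receptor, rose most among the 4, so the sequences at their starts are shown here. Both come from RefSeq on the rat assembly GRCr8 and run from 250 bases before to 50 bases after the annotated start. The table of starts held 5 of the 7 genes, and Ramp2 and Calcb were not among them. Capitals mark the motifs found. Those searched were ACGTG and GCGTG, the core letters bound by hypoxia inducible factors, TGACG and TGACGTCA, the partial and complete cyclic AMP response element, each on both strands, and the TATA box letters TATAAA and TATAAG on the gene's strand. TGACG lies within TGACGTCA.
Adm, chr1:174179950-174180249, plus strand: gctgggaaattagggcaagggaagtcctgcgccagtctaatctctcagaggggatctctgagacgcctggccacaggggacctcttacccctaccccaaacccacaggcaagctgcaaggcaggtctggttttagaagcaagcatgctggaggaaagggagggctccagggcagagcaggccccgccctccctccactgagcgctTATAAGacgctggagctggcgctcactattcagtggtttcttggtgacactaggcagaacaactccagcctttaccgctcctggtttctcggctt
Ramp3, chr14:85741064-85741363, plus strand: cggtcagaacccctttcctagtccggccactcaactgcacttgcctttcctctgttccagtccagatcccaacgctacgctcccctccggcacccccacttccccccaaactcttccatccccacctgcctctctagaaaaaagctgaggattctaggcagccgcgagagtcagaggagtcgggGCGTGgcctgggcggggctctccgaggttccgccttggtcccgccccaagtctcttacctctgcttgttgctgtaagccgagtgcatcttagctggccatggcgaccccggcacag

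The Adm window held TATAAG at position -45 from the start, which 4.61% of 33469 rat promoter windows also hold, and none of the hypoxia or cyclic AMP letters searched. The Ramp3 window held GCGTG at -66, found in 29.7% of all windows. The window of Ramp1, which was not called, holds the same letters at -73. A match is a description of these letters and the windows are short.

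Among the ligands, Adm encodes the precursor of adrenomedullin, a vasodilator peptide that vessels and many mesenchymal cells make. Its signal was low in controls, where the lowest, median and highest arrays gave 2.86, 3.10 and 3.16 log2 units. The 3 arrays at 10 nM gave 3.75, 4.00 and 4.41, and at 100 nM the lowest, median and highest gave 3.52, 4.29 and 5.17. No Insl3 array overlapped the controls, while the 2 doses overlapped each other widely. The change was 1.20 ± 0.24 log2 units at 100 nM (SE; 2.30-fold, adjusted p = 0.00621, limma) and 0.98 ± 0.29 at 10 nM (1.98-fold, adjusted p = 0.0471, limma). Near background GCRMA compresses differences, so these folds may understate the change.

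The Adm call at 10 nM lay close to the threshold. It was lost in 11 of the 15 fits that left out 1 array, namely without any 1 of the 6 controls, any 1 of the 3 arrays at 10 nM, or 100 nM replicate 2 or 3, with changes of 0.81 to 1.13 and adjusted p up to 0.218 (limma). It was also lost without the filter (adjusted p = 0.105) and with arrays set to a common median (adjusted p = 0.0513, limma). The 10 nM call was kept in 9 of 11 alternative fits that did not leave out single arrays. Among the kept fits, adjusted p was 0.00243 with only control and 10 nM arrays, where the SE was 0.13 instead of 0.29 (limma). It was 0.00487 with the division of replicates as a term and 0.0489 with replicates 1, 2 and 6 alone (limma). The 100 nM call was kept in all 15 fits without 1 array, with changes of 1.02 to 1.35.

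Within the 100 nM group, Adm differed between the sets of replicates. Replicates 3, 4 and 5 had 4.61, 5.17 and 4.67 log2 units, against 3.09, 3.16 and 3.10 in the controls of the same numbers. Replicates 1, 2 and 6 had 3.69, 3.97 and 3.52, against 2.86, 3.15 and 3.05 in their controls. The difference of means was thus 1.70 in replicates 3, 4 and 5 and 0.71 in replicates 1, 2 and 6, where it was not called (adjusted p = 0.0848, limma). The controls of the 2 sets averaged 3.12 and 3.02, but they lay near background, where differences are compressed. At 10 nM replicate 3 gave 4.41, and replicates 1 and 2 gave 3.75 and 4.00. Whether the response differs between the sets was not tested, since the sets come from the arrays themselves.

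Adm is a well known target of hypoxia inducible factors, and 20 other genes of that response or its control were listed beside it, all chosen with earlier results of these data known. Of the 17 with a tested probe set, 3 rose at 100 nM, none fell and 14 were not called. Their median change was 0.13 log2 units, where the median of all tested probe sets was 0. The share of all tested probe sets called higher was 6.51% at 100 nM and 4.88% at 10 nM. Egln3, an oxygen-sensing prolyl hydroxylase gene, was 5.77 ± 0.33 at 100 nM and 4.14 ± 0.43 in controls (SD, n = 6 and 6). Pfkfb3, whose enzyme drives glycolysis, rose by 0.62 ± 0.14 (adjusted p = 0.0143) and P4ha1, a collagen prolyl hydroxylase gene, by 0.55 ± 0.08 (adjusted p = 0.000916, limma).

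At 10 nM, Egln3 rose by 1.59 and Slc2a1, the glucose transporter gene, by 0.42 (adjusted p = 0.000873 and 0.0151, limma), the 2 calls of 17. Vegfa, a classical target, changed by 0.43 at 100 nM and -0.02 at 10 nM and was not called (adjusted p = 0.319 and 0.984, limma), and Car9 was at the floor in all 15 arrays. The mean of the 20 genes was higher by 0.20 at 100 nM than in controls both in replicates 3, 4 and 5 and in replicates 1, 2 and 6. A mean over many genes, most of them not called, varies less than 1 gene does. Its spread between the replicate sets therefore cannot be compared with that of Adm. The part of this response in the Adm result was not tested.

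**Figure D2:**
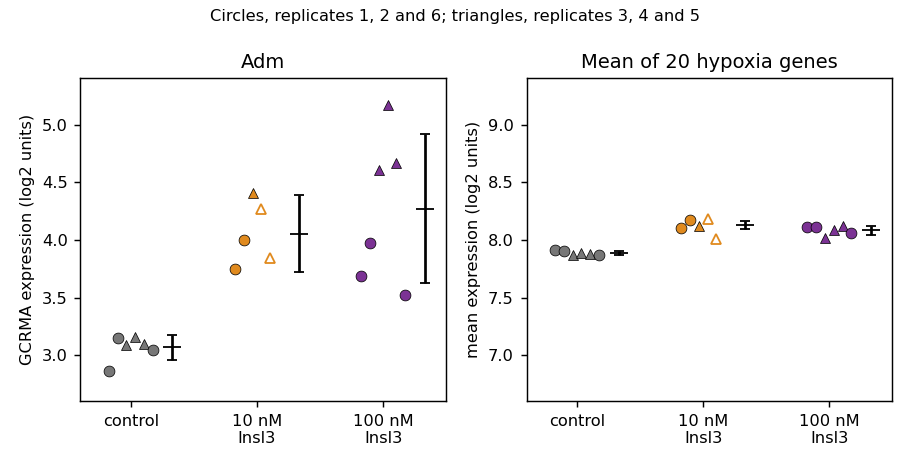
Left, Adm, and right, the mean of the 20 listed hypoxia genes, in log2 units by Insl3 dose, both axes spanning the same range. Points are arrays (circles, replicates 1, 2 and 6; triangles, replicates 3, 4 and 5; open, set aside) and bars are mean ± SD. At 100 nM the Adm triangles, 4.61 to 5.17, lie above the circles, 3.52 to 3.97. The hypoxia means of all 6 arrays lie between 8.02 and 8.12, but a mean of 20 genes varies less than 1 gene, so the 2 spreads are not comparable.

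Calca, the gene of calcitonin and alpha-CGRP, gave no signal in any array. Of its 3 probe sets, 2 were at the floor in all 15 arrays and the other was at 2.11 or 2.12 throughout. Calcb, the gene of beta-CGRP, lay between 2.11 and 2.13 in controls, between 2.11 and 2.20 at 10 nM and between 2.11 and 2.28 at 100 nM. With every value at or near the floor, no dose effect could be seen on either CGRP gene, and a low level cannot be told from none.

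CGRP is made mainly by sensory neurons, whose cell bodies lie outside the dissected bulb. Of 15 listed sensory neuron markers, 7 never exceeded the filter value, among them Tac1, the substance P precursor, and the sodium channel gene Scn10a, both at the floor in all 15 arrays. Other neuronal genes had a signal, such as Stmn2 with 11.56 at 100 nM and 11.45 in controls. Isl1, a transcription factor gene of sensory neurons and of some mesenchyme, had 9.79 at 100 nM and 9.65 in controls. Only Uchl1 was called of the 8 tested at 100 nM (0.72, adjusted p = 0.00479, limma), and none at 10 nM (limma; 1 of 8 at an unadjusted p under 0.05). Snap25, 1 of the 8, averaged 2.11 in controls and at 10 nM and 2.81 at 100 nM. It entered the test through 4 arrays at 100 nM alone and was not called (adjusted p = 0.146, limma). The list's summed signal, added on the linear scale and returned to log2, ran from 12.26 to 12.58 in controls, from 11.93 to 12.32 at 10 nM and from 12.32 to 12.61 at 100 nM. Stmn2, the highest gene of the list, leads that sum.

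Calcrl, the gene of the receptor that all 3 RAMPs serve, was also at background. Of its 2 probe sets, 1 was at the floor in all 15 arrays. The other was at the floor in 12 of them and reached 2.23 at 10 nM and 2.25 at 100 nM, below the filter value. These 2 probe sets give no measured level for the receptor in this tissue, while its accessory genes had clear signals. Calcr, the calcitonin receptor gene, whose product also pairs with RAMPs, and the amylin gene Iapp were at the floor in 14 of 15 arrays each. Signals of different probe sets depend on their sequences, so no ratio of receptor to accessory protein can be drawn from them.

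Ramp3 had the largest change of the 4 tested members. Its product takes part in adrenomedullin binding and in sorting of the receptor after it is taken into the cell. In controls the arrays gave a lowest, median and highest value of 5.52, 5.99 and 7.50 log2 units. The 3 arrays at 10 nM gave 8.05, 8.06 and 8.02, and at 100 nM the values were 7.83, 8.09 and 8.30. All 9 kept Insl3 arrays lay above the highest control, and the spread was wide in controls (SD 0.72) and narrow with hormone (SD 0.02 at 10 nM and 0.21 at 100 nM).

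The change of Ramp3 was 1.87 ± 0.26 log2 units at 100 nM (SE; 3.66-fold, adjusted p = 0.000515, limma) and 1.84 ± 0.32 at 10 nM (3.58-fold, adjusted p = 0.00229, limma). Control replicate 6, at 7.50, was the nearest to the Insl3 arrays. Without it the change was 2.13 at 100 nM and 2.10 at 10 nM. Within replicates 3, 4 and 5 the means were 8.12 ± 0.25 at 100 nM and 6.06 ± 0.40 in controls, and within replicates 1, 2 and 6 they were 8.03 ± 0.21 and 6.35 ± 1.03 (SD, n = 3 each). The difference of 1.68 in replicates 1, 2 and 6 did not pass the test alone (adjusted p = 0.160, limma).

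Ramp2, the accessory protein of the main adrenomedullin receptor of blood vessels, rose less but evenly. Its lowest, median and highest values were 10.43, 10.67 and 10.98 log2 units in controls. The 3 arrays at 10 nM gave 11.20, 11.07 and 11.22, and at 100 nM the values were 11.07, 11.29 and 11.47. The groups did not overlap, although the lowest Insl3 array exceeded the highest control by only 0.09 at either dose. Ramp2 rose by 0.61 ± 0.10 at 100 nM (1.53-fold, adjusted p = 0.00121, limma) and by 0.48 ± 0.12 at 10 nM (1.39-fold, adjusted p = 0.0163, limma).

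The size of the Ramp2 change at 100 nM was alike in replicates 3, 4 and 5 (0.60, adjusted p = 0.0639) and in replicates 1, 2 and 6 (0.63, adjusted p = 0.0937, limma), though neither set passed the test alone. The 100 nM call was lost with the mean of the erythroid markers as a covariate (0.52, adjusted p = 0.0788, limma). That mean was 6.27 ± 0.77 at 100 nM and 8.29 ± 0.93 in controls (SD, n = 6 and 6), so it differs with the dose itself. The 10 nM call was lost without 10 nM replicate 1 (adjusted p = 0.0700) or 10 nM replicate 3 (adjusted p = 0.0839, limma).

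Ramp1, which turns the receptor into one for CGRP, showed no called change. Its lowest, median and highest values were 9.04, 9.30 and 9.53 log2 units in controls. The arrays at 10 nM gave 9.44, 8.95 and 9.20, and at 100 nM the values were 9.08, 9.49 and 9.87. The 3 groups overlapped. The change was 0.18 at 100 nM (95% interval -0.09 to 0.46, adjusted p = 0.393, limma) and -0.11 at 10 nM (-0.45 to 0.22, adjusted p = 0.709, limma). The upper limits correspond to 1.37-fold and 1.16-fold, and the lower limits to 0.940-fold and 0.733-fold, so a change of Ramp1 within these limits remains possible.

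Complete separation of Insl3 arrays from controls, every hormone array above every control, held for Adm, Ramp2 and Ramp3 at both doses. It held for 3.48% of all tested probe sets at 100 nM and for 9.15% at 10 nM, where 3 arrays stand against 6.

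The doses did not separate for any member. At 100 nM against 10 nM, 0 of the 4 tested members passed (limma), also 0 at an unadjusted p under 0.05, where 1.43% of all tested probe sets were called and 1.24% were called higher. No member had all its 100 nM arrays above all its 10 nM arrays, as 3.84% of tested probe sets did. The difference was 0.03 log2 units for Ramp3 (95% interval -0.65 to 0.71), 0.13 for Ramp2 (-0.12 to 0.38), 0.22 for Adm (-0.41 to 0.85) and 0.30 for Ramp1 (-0.04 to 0.63). With 3 arrays at 10 nM, these intervals leave room for a dose difference of up to 1.64-fold for Ramp3 and 1.80-fold for Adm.

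**Figure D3:**
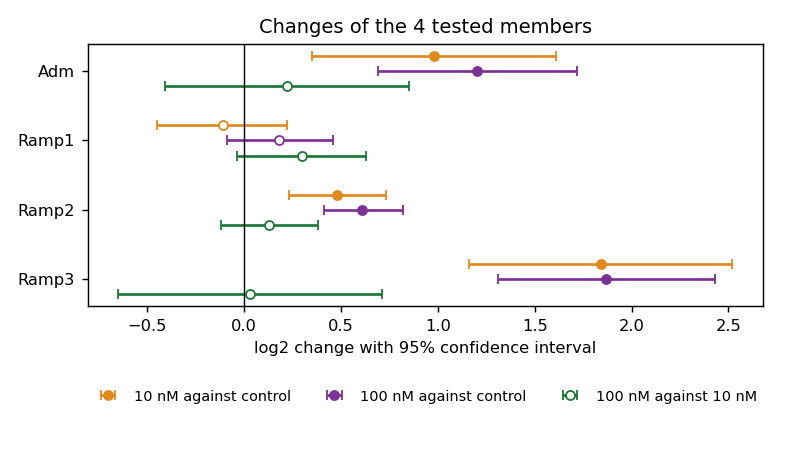
Log2 change of the 4 tested members in the 3 comparisons, with limma's 95% confidence interval. Filled points passed the adjusted p of 0.05, and open points did not. Adm, Ramp2 and Ramp3 are filled for both doses against control, and all 100 nM against 10 nM intervals include 0.

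RAMP2 and adrenomedullin are best known from blood vessels, so 15 endothelial markers were set beside the RAMP genes. Of the 11 tested, 2 rose at each dose, none fell and 9 were not called, with a median change of 0.08 at 100 nM and 0.12 at 10 nM. Among all tested probe sets, 6.51% were called higher at 100 nM and 4.88% at 10 nM. Cldn5, a tight junction gene, was 12.35 ± 0.39 at 100 nM and 9.51 ± 0.48 in controls, and Kdr, a VEGF receptor gene, was 10.81 ± 0.28 and 9.87 ± 0.28 (SD, n = 6 and 6). Pecam1, a defining endothelial gene, was low and changed by 0.01 at 100 nM (adjusted p = 0.992), Eng by 0.18 (adjusted p = 0.453), Esam by -0.37 (adjusted p = 0.161) and Emcn by -0.42 (adjusted p = 0.329, limma). Of the others, Flt1, Vwf and Plvap were at the floor in all 15 arrays and Tek never exceeded the filter value. Among those tested, Tie1, Sox18, Erg, Pecam1 and Sox17 lay near background, with control means of 2.22, 2.34, 2.92, 2.95 and 3.36. Their small changes enter the median and say little.

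The summed signal of the 15 markers ran from 10.95 to 11.46 in controls, from 11.77 to 12.52 at 10 nM and from 12.52 to 13.22 at 100 nM. Such a sum follows its strongest genes, here Cldn5 and Kdr, the 2 that were called, and does not measure the list as a whole. The mean of the log2 values, which weighs each gene alike, ran from 4.54 to 4.70, from 4.69 to 4.94 and from 4.62 to 5.23. Genes at or near the floor enter that mean too. In the lymphatic list, Pdpn, also a gene of mesothelium and mesenchyme, rose by 1.38 at 100 nM, while Prox1, the lymphatic transcription factor gene, fell by 0.43 (adjusted p = 0.00416 and 0.00562, limma). The part of vessel content in the RAMP results was not tested. Among smooth muscle and pericyte markers, none of 9 was called at 100 nM (limma; 3 of 9 at an unadjusted p under 0.05). At 10 nM Myh11 rose by 2.65 and Tagln fell by 0.43 (adjusted p = 0.0279 and 0.0299, limma). At 100 nM their values were 1.81 and -0.28 (adjusted p = 0.0619 and 0.0785), and 100 nM against 10 nM was not called for either (adjusted p = 0.707 and 0.676, limma).

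**Figure D4:**
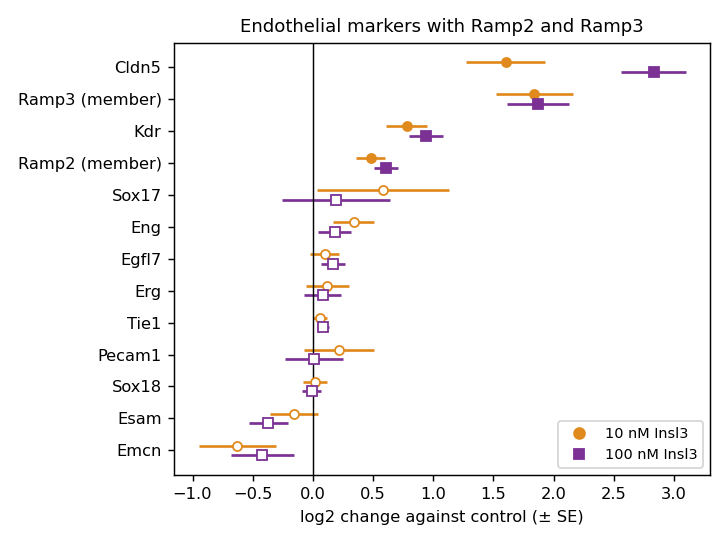
Log2 change against control of the 11 tested endothelial markers with Ramp2 and Ramp3, at 10 nM (circles) and 100 nM Insl3 (squares), with limma's SE. Filled points passed the adjusted p of 0.05. Ramp3, Ramp2, Cldn5 and Kdr are filled at both doses, and the other 9 markers, Pecam1 among them, are open.

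Blood cell markers moved with the 100 nM dose and are given beside the members for that reason. For all tested probe sets the shares were 6.51% called higher and 4.39% lower at 100 nM, and 4.88% and 5.7% at 10 nM. Of 9 tested erythroid markers, 6 fell at 100 nM and none at 10 nM, with a mean change of -2.02 and -0.41 log2 units. Of 10 leukocyte markers, 7 fell at 100 nM and none at 10 nM (limma; 0 of either list at an unadjusted p under 0.05). Adm, Ramp2 and Ramp3 were called higher at both doses. In the Schwann cell list 1 of 3 rose at 100 nM (Ngfr, 1.38) and 1 fell (Mbp, -0.28), and in the skeletal muscle list 2 of 17 fell (Musk, -0.49, and Myod1, -0.32). Mbp and Musk lay near background, averaging 3.23 and 3.24 in controls. The Schwann cell genes Foxd3 and Sox10 were at the floor in 15 and 12 of the 15 arrays and were not tested. In the gubernaculum mesenchyme list 2 of 9 rose at 100 nM (Twist2, 2.83, and Osr2, 1.04) and 2 fell (Lum, -0.35, and Dcn, -0.19). At 10 nM none of that list rose and 2 fell (Prrx1, -1.17, and Dcn, -0.24, adjusted p = 0.00874 and 0.0343, limma). Prrx1 changed by -0.08 at 100 nM and was not called there. With the erythroid mean as a covariate, Adm rose by 1.62 and Ramp3 by 1.91 at 100 nM (adjusted p = 0.0291 and 0.0290, limma), while Ramp2, with 0.52, was no longer called (adjusted p = 0.0788, limma). That mean differs with the dose, so this fit cannot tell blood content and dose apart. The part of these cell types in the members' results was not tested.

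Genes that make, break down or transduce these peptides were counted from a list of 24, of which 21 had a probe set and 17 were tested. At 100 nM 7 rose, none fell and 10 were not called, with a median change of 0.13, and at 10 nM 5 rose and none fell. The 7 include Pcsk2 and Nsf, whose calls are uncertain for the reasons given with their values. Over all tested probe sets, 6.51% were called higher at 100 nM and 4.88% at 10 nM. Cpe, which trims the basic residues left when precursors are cut, rose by 1.99 ± 0.12 log2 units at 100 nM (3.97-fold) and by 1.70 at 10 nM (adjusted p = 2.37e-07 and 2.8e-05, limma). Pam, the enzyme that adds the C-terminal amide that CGRP and adrenomedullin need for activity, rose by 0.36 ± 0.10 and 0.51 (adjusted p = 0.0382 and 0.0167, limma). Pcsk2, a precursor convertase gene of neuroendocrine cells, was at background in controls (2.11 to 2.12). It gave 2.18 to 5.19 at 100 nM, an estimated change of 1.49 ± 0.44 log2 units (SE; 2.82-fold). The change was called there (adjusted p = 0.0419) and not at 10 nM (adjusted p = 0.137, limma). No control exceeded the filter value of 2.285, so Pcsk2 entered the test through Insl3 arrays alone. Controls at background have no measured level, so the size of this change is uncertain.

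Enzymes that degrade such peptides rose as well. Mme, which encodes neprilysin, was 10.47 ± 0.23 at 100 nM and 9.09 ± 0.27 in controls (SD, n = 6 and 6), a 2.61-fold rise (adjusted p = 2.07e-05), and at 10 nM it rose by 1.08 (adjusted p = 0.000949, limma). Ece1, the endothelin converting enzyme gene, which also cuts CGRP inside the cell, rose by 0.54 at 100 nM and by 0.71 at 10 nM (adjusted p = 0.00943 and 0.00517, limma). Nsf, a membrane fusion protein gene that acts in RAMP3 receptor recycling, rose by 0.38 at 100 nM (adjusted p = 0.0149, limma) by its strongest probe set. Its other 2 probe sets changed by 0.02 and -0.24 and were not called, so that call is uncertain.

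Among genes of receptor partners, the receptor kinase gene Grk6 was called, with a rise of 0.19 at 100 nM and 0.28 at 10 nM (adjusted p = 0.0285 and 0.0105, limma). The receptor component gene Crcp changed by -0.01 at 100 nM and the decoy receptor gene Ackr3, which takes up adrenomedullin, by -0.04, neither called (adjusted p = 0.970 and 0.812, limma). Nherf1, which encodes a scaffold that binds RAMP3, changed by -0.50 (adjusted p = 0.194, limma). In the list of G protein and adenylyl cyclase genes 1 of 6 tested genes rose at each dose (all tested, 6.51% and 4.88%) and none fell. This was Adcy6, a cyclase gene, with 10.82 ± 0.26 at 100 nM and 10.26 ± 0.29 in controls (SD, n = 6 and 6; adjusted p = 0.0215) and a 10 nM adjusted p of 0.0498 (limma). Gnas, the gene of the stimulatory G protein, was high throughout, at 15.67 at 100 nM and 15.57 in controls, and was not called.

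**Figure D5:**
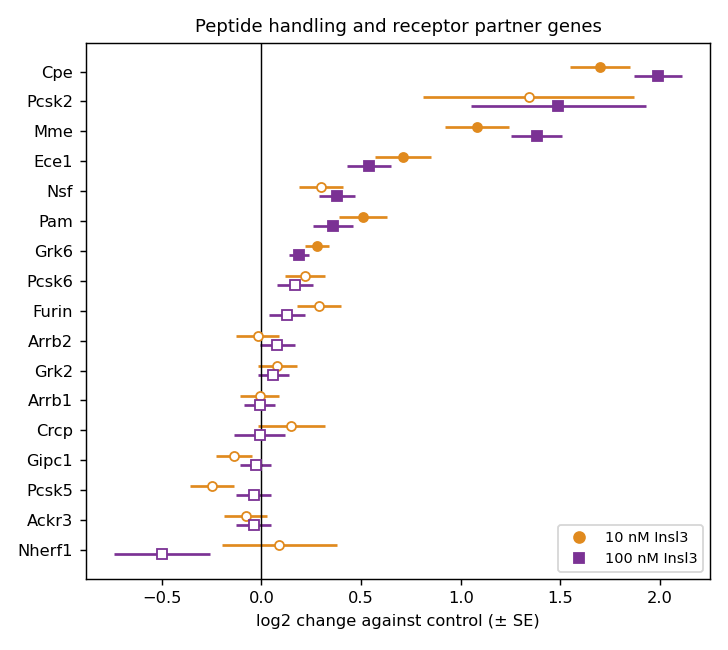
Log2 change against control of the 17 tested genes for peptide processing, peptide breakdown and receptor partners, at 10 nM (circles) and 100 nM Insl3 (squares), with limma's SE. Filled points passed the adjusted p of 0.05. Cpe, Mme, Ece1, Pam and Grk6 are filled at both doses, and Pcsk2 and Nsf, both uncertain calls, at 100 nM.

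The probe sets closest in pattern to each called member were found by the root mean square difference over the 15 arrays, each centred on its own control mean, among 14545 single-gene probe sets. For Ramp3 these were Gfra3, a co-receptor of the neurotrophic factor artemin (0.39), Egln3 (0.39) and Tnfrsf21, a death receptor gene (0.43). For Ramp2 they were Selenom, a selenoprotein gene (0.12), Hacd3, an enzyme gene of fatty acid elongation (0.14), and Timp1, a metalloprotease inhibitor gene (0.15). For Adm they were Nkd1, an inhibitor of Wnt signalling, Pitpnc1, a lipid transfer protein gene, and Crem, a cyclic AMP responsive factor gene, each at 0.34. Between the called members the differences were 0.64 for Adm and Ramp2, 0.81 for Adm and Ramp3 and 1.07 for Ramp2 and Ramp3. The genes named above were picked as the closest of 14545, so they lie nearer than fixed pairs by construction, and no conclusion is drawn from that. Small differences are easier to reach for genes with small changes, so these values rank genes within a member and not between members.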

How the data were processed

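Per the submitters' processing notes, the authors made the deposited log2 expression values with GCRMA, which corrects background by probe sequence, normalizes between arrays and summarises probes into probe sets. Its version, and whether all 17 arrays went through it together, are not given in the sources used here. The base of the logarithm is not stated either. Base 2 was read from the range of 2.11 to 16.9. Between 31.3% and 34.9% of each array's probe sets lay within 0.005 of the floor, and array medians were 4.29 to 4.47. Signal over background and the number of arrays limit precision.

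The platform table gave 20832 probe sets 1 gene and 436 several. Probe sets other than 57 manufacturer controls were tested if above 2.285, the 40th percentile, in at least 3 of 15 arrays. The 3 groups were fitted together with limma 3.58.1 in R 4.3.3 (lmFit, eBayes, 2-sided). P-values were adjusted by Benjamini-Hochberg over 18938 probe sets, threshold 0.05. The fit was tested on simulated data. A list gene with several probe sets was represented by that with the highest mean.

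All members are described. The rule names the called genes of each pathway list, up to the 6 with the largest change at 100 nM. Grk6, a seventh, and all uncalled genes named were chosen after their values were seen. Erythroid and leukocyte markers are given by counts. The members and lists were chosen with earlier results of these data known. The labels call replicates biological. Alternatives covered the filter, normalization, variance model, arrays used, replicate block, division of replicates, erythroid covariate and each array left out.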

Additional observations from a re-analysis of the deposited data

Results flagged for a closer look

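The 2 arrays at 10 nM that the submitters set aside, with cRNA yields of 25.66 and 33.68 µg against 48.6 to 102.69 µg for the kept arrays, gave some member signals above every kept array. Calcb read 5.63 log2 units in set-aside replicate 4, where the highest kept array of any group read 2.28 and set-aside replicate 5 was at the floor of 2.11. Ramp3 read 9.04 and 8.88 in set-aside replicates 4 and 5, where the highest kept array read 8.30. Ramp2 read 11.65 in set-aside replicate 4, where the highest kept array read 11.47. One Calcrl probe set read 2.39 in set-aside replicate 5, just above the filter value of 2.285. The summed signal of sensory neuron markers was 11.59 and 11.70 in these arrays, below the lowest kept 10 nM array at 11.93 and the lowest control at 12.26. In the kept arrays that sum follows Stmn2 and does not measure the list as a whole. The source of the Calcb reading was not tested.

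Among the controls, the lowest Adm array, replicate 1 at 2.86, stood apart from the other 5, which lay between 3.05 and 3.16. Without it the Adm change at 10 nM was 0.94 and no longer called (adjusted p = 0.0779, limma). This was 1 of 8 groups examined for a lone array, and chance marks about 1 group in 20.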

How the results depend on the processing

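The calls of Adm, Ramp2 and Ramp3 at 100 nM were kept in all 15 fits without 1 array, and with quantile normalization again, all 17 arrays, the replicate block or the division as a term. With replicates 1, 2 and 6 alone, 0 members were called at 100 nM and 1 at 10 nM, where Ramp3 (1.71) and Ramp2 (0.41) lost their calls (adjusted p = 0.197 and 0.274, limma). Without 1 array the number at 10 nM was 1 to 3, and 1 without 10 nM replicate 1 or 3. Called probe sets at 100 nM (2065) numbered 1008 with all 17 arrays, 200 with replicates 1, 2 and 6 alone and 650 with the erythroid covariate. At 10 nM (2004) they numbered 559 with replicates 1, 2 and 6 alone and 1020 to 2495 without 1 array. At 100 against 10 nM (271) they numbered 22 without a filter, 3 with only those 2 groups, 429 with the replicate block, 531 with the division as a term, 134 with replicates 1, 2 and 6 alone and 3 to 619 without 1 array. Fewer arrays or more probe sets enter some of these fits, and beyond that the cause was not tested.

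Values that changed sign were all uncalled. Ramp1 at 10 nM became 0.07 with all 17 arrays, 0.02 with replicates 1, 2 and 6 alone and 0.01 without 10 nM replicate 2 (-0.24 to 0.01 over all fits without 1 array). For 100 against 10 nM, Adm became -0.15 with replicates 1, 2 and 6 alone. Ramp3 became -0.34 with all 17 arrays, -0.10 with the replicate block, -0.02 with replicates 1, 2 and 6 alone, and -0.01 and -0.02 without 100 nM replicates 1 and 3 (-0.02 to 0.08 over all fits without 1 array).

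Deviations of same-numbered arrays correlated weakly, with r of 0.01 to 0.20 over 6 pairs of 100 nM and control arrays, all above 0, against -0.37 to 0.34 for different numbers. Over 3 pairs of 10 nM and control arrays r was -0.04 to 0.13. Not every pair exceeded 0.1, and the main fit did not treat the arrays as paired. These correlations do not settle whether same-numbered arrays belong together. Only 1 of the 6 arrays at 100 nM correlated best with the control of its own number. The replicate block changed no member's call.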
